A study of Mus musculus with 10 samples.

Results

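The genes described here encode the calcium store of the heart muscle cell: the release channel of the sarcoplasmic reticulum (Ryr2) with its anchoring proteins (Trdn, Jph2), the calcium buffers of the store (Casq2, Casq1, Hrc), the pump that refills it (Atp2a2) with its small inhibitors (Pln, Sln), and the sodium-calcium exchanger of the cell surface (Slc8a1). The 10 genes were chosen by name and each matched 1 of the 40690 genes in the table of read counts. The libraries hold polyadenylated RNA from the heart ventricles of male mice of the C57BL/6 strain, 10 weeks old. The tested mice were 5 that had a sham operation, the surgical control for an ischemia-reperfusion experiment in which a coronary artery is closed and reopened. They were set against 5 naive mice that were not operated on. The comparison addresses what the surgery itself changes in the ventricle. How long after the operation the hearts were taken is not known from the sources used here, and nothing says that hearts were pooled.

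With each heartbeat, calcium that enters through the surface membrane opens ryanodine receptors, and the store empties into the cytosol to drive contraction. Relaxation follows as the pump, SERCA2a, returns calcium to the store and the exchanger carries the rest out of the cell. Phospholamban and sarcolipin hold the pump back, and calsequestrin binds calcium inside the store close to the release channel.

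Of the 10 transcripts, 7 were lower in sham ventricles than in naive ventricles (Ryr2, Jph2, Casq2, Casq1, Hrc, Atp2a2 and Pln), 0 were higher, and Trdn and Slc8a1 did not pass the test, although the sign turned positive for Jph2, Casq2 and Hrc when libraries were scaled on heart muscle markers. Sln had too few counts to be tested. Among all 13622 genes tested, 15.5% were lower and 17.2% were higher in sham, by edgeR's quasi-likelihood F test with a Benjamini-Hochberg adjusted p under 0.05. The median log2 fold change, sham over naive, was -0.36 over the 9 tested transcripts, against -0.05 over all genes tested and -0.43 over all genes called lower. Every sham library lay below every naive library for 2 of the 9, Ryr2 and Hrc, against 9.18% of all genes tested. In bulk tissue, fewer heart muscle cells and less of a transcript per heart muscle cell cannot be told apart. The fitted level in sham was between 61.1% (Casq1) and 79.8% (Jph2) of the level in naive ventricles for the 7 called transcripts.

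Library totals were 10654107 to 21537135 counts in sham and 9683181 to 17577906 counts in naive hearts, so that 3 counts stood at 0.139 to 0.310 CPM by library total; all other CPM values (counts scaled to a common library size) include TMM normalisation factors. The library sham 4 stood apart from the other sham libraries, with a chi-square per degree of freedom of 61.2 to 78.1 against them over all genes, where the other 4 sham libraries gave 9.32 to 20.4 among themselves. Without sham 4, 6 of the 9 tested transcripts were called lower, Jph2 no longer being called, and without sham 5 the number was 4, with Jph2, Casq2 and Atp2a2 no longer called. Over all genes tested, 1794 of 13692 were called lower without sham 4 and 1485 of 13715 without sham 5. With all 10 libraries the number was 2113 of 13622. Heart muscle transcripts were abundant, with the alpha myosin heavy chain Myh6 at 30510 ± 2147 CPM in sham and 38650 ± 998.1 CPM in naive libraries (SD, n = 5 each). Atrial markers differed widely in level. The atrial light chain Myl7 stood at 0.945 ± 1.34 CPM in sham and 1.03 ± 0.28 CPM in naive libraries. Nppa stood at 82.28 ± 34.5 CPM in sham and 45.21 ± 6.10 CPM in naive libraries, and shares 61.5% of its exon bases with Gm13054, so it is uncertain. Stard10 stood at 37.26 ± 4.94 CPM in sham and 50.57 ± 11.85 CPM in naive libraries. Dkk3 stood at 17.6 ± 4.35 CPM in sham and 3.14 ± 0.91 CPM in naive libraries. Its log2 fold change of 2.505 (edgeR adjusted p = 1.39e-07) was the largest of the atrial list, with every sham library above every naive library.

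Markers of heart muscle and of other cell types also differed between the groups in the same libraries. Of 15 heart muscle markers 11 were lower and 0 were higher in sham, and their summed level ran from 83460 to 102300 CPM in sham against 114200 to 120600 CPM in naive libraries. Of 10 fibroblast markers 9 were higher, with sums of 13900 to 25380 CPM in sham against 1470 to 2110 CPM in naive. Most of the sham sum came from the collagen genes Col1a1, Col3a1 and Col1a2, with sham means of 8598, 6944 and 3159 CPM. The log2 fold changes of the other fibroblast markers ran from 0.31 (Dcn, not called) to 3.58 (Postn). All 10 macrophage and monocyte markers were higher, with sums of 1349 to 1673 CPM in sham against 435.3 to 534.8 CPM in naive. None of the fibroblast, macrophage and monocyte markers was at 3 counts or fewer. Endothelial markers summed to 1256 to 1386 CPM in sham and 1360 to 1567 CPM in naive, with 1 of 10 higher and 4 lower. Smooth muscle and pericyte markers summed to 734.3 to 933.5 CPM in sham and 668.8 to 1032 CPM in naive, with 1 of 8 higher and 2 lower. Of 2 tested brown fat markers 1 was lower, and Ucp1 and Elovl3 were at 3 counts or fewer. The part of these shifts in the results for the calcium genes was not tested beyond the ratios and the scaling given further on.

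Of the release channel and the proteins that hold it in place, Ryr2 and Jph2 were lower in sham ventricles and Trdn did not pass. Ryr2, the cardiac ryanodine receptor (ENSMUSG00000021313; chromosome 13, 11553102 to 12106945, minus strand, GRCm38), had 1301, 1222, 1378, 907.4 and 1303 CPM in sham libraries 1 to 5, against 1586, 1794, 1960, 1841 and 2443 CPM in naive libraries 1 to 5. The highest sham library was below the lowest naive library, with sham 4 the lowest of all and naive 5 the highest. Ryr2 averaged 1222 ± 184.6 CPM in sham and 1925 ± 319.7 CPM in naive hearts (SD, n = 5 each). It fell by 0.66 ± 0.13 on the log2 scale (SE; edgeR adjusted p = 9.7e-04) and had the smallest adjusted p of the 9 genes tested. The 300 bases around its start in RefSeq, on the minus strand of chr13:12106896-12107195 (GRCm38.p6), are printed to set beside those of the other gene whose groups did not overlap and of genes that moved less; capitals, here absent, would mark the core motifs of GATA, TEAD, MEF2 and serum response factor proteins that are spelled out further on.
Ryr2: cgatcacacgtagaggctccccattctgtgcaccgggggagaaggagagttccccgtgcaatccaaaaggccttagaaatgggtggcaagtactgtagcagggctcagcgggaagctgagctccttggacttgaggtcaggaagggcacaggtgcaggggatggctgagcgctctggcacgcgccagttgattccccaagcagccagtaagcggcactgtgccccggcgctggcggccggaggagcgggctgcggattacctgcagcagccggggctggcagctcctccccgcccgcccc

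Jph2, junctophilin, which tethers the store to the surface membrane (ENSMUSG00000017817; chromosome 2, 163336242 to 163397993, minus strand), had 1535, 1430, 1383, 1243 and 1200 CPM in sham against 2027, 1952, 1688, 1451 and 1387 CPM in naive libraries. The groups overlapped, since naive 4 and naive 5 lay within the sham range. Jph2 averaged 1358 ± 137.1 CPM in sham and 1701 ± 287.5 CPM in naive hearts and fell by 0.32 ± 0.12 on the log2 scale (SE; edgeR adjusted p = 0.0415). The call was lost when naive 1, 2 or 3 or sham 2, 3, 4 or 5 was left out, with log2 fold changes of -0.33 to -0.26 in those fits.

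Trdn, triadin, which links the channel to calsequestrin (ENSMUSG00000019787; chromosome 10, 33080554 to 33476709, plus strand), had 21.83, 26.24, 21, 41.64 and 27.51 CPM in sham against 15.94, 23.75, 28.52, 41.86 and 48.80 CPM in naive libraries. The spread within each group exceeded the distance between them: naive 1 was the lowest of all 10 libraries and naive 5 the highest, and sham 4 was almost level with naive 4. The log2 fold change of -0.20 ± 0.29 (SE) did not pass the test (edgeR adjusted p = 0.641), and without naive 5 it was 0.003. Ryr2 and Trdn are listed with 2 and 1 transcripts in the deposited table and with 14 and 8 in the GENCODE M21 annotation. Pln and Slc8a1, described further on, are listed with 2 and 3 transcripts in the deposited table and with 6 each in GENCODE M21. The models that were counted may therefore cover less than all exons of these genes, which also limits their levels per length.

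**Figure D1:**
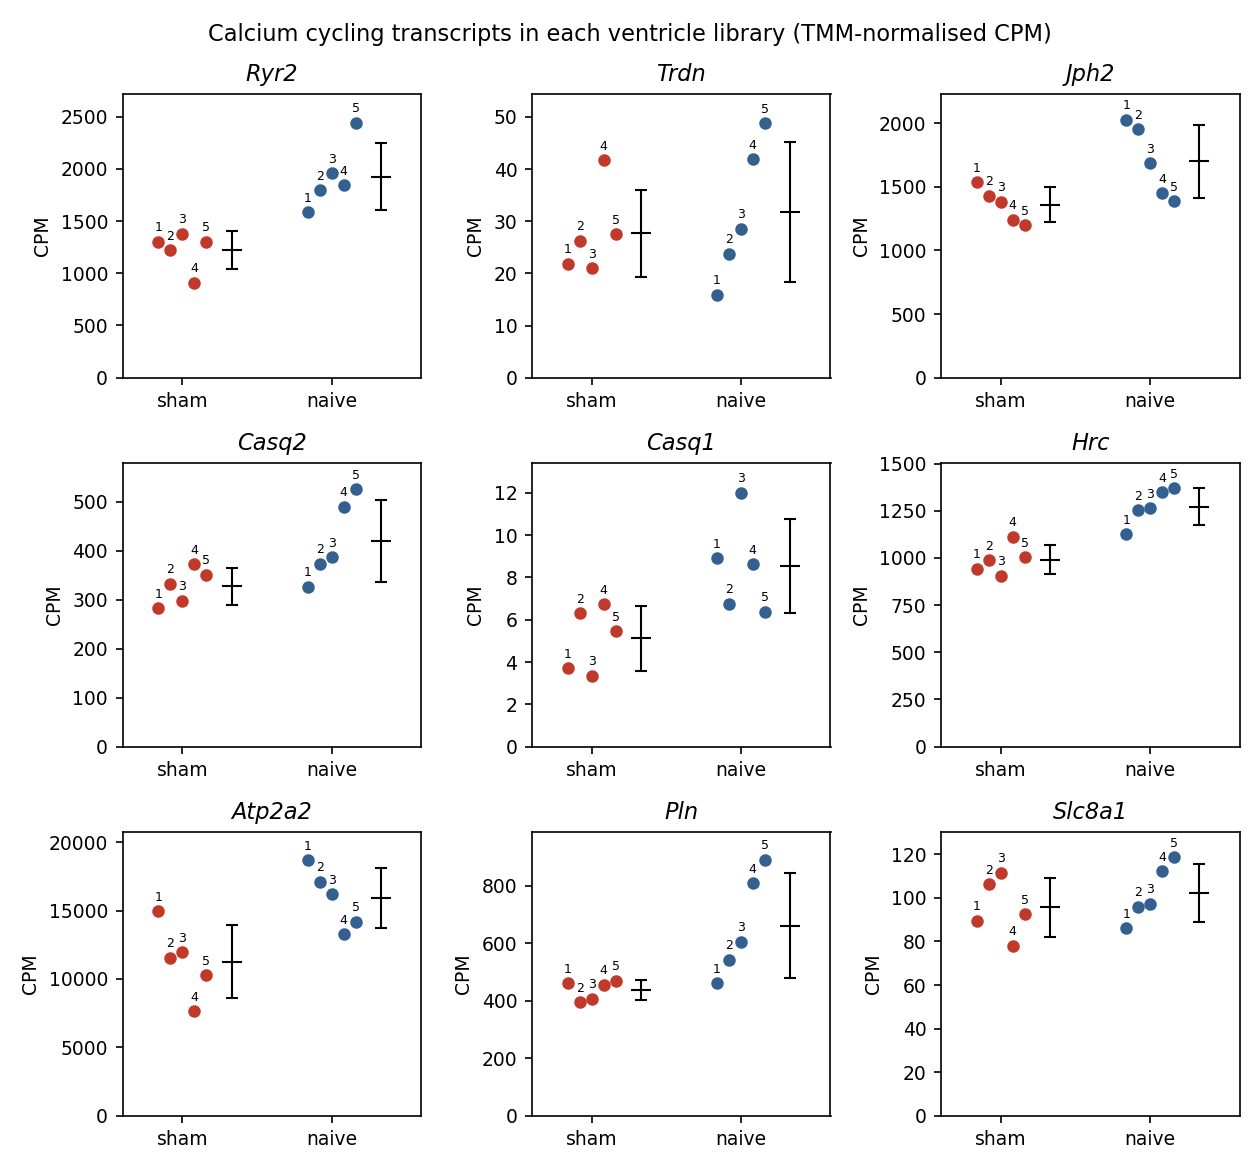
Each panel plots the TMM-normalised CPM of 1 calcium cycling transcript in the 5 sham libraries (red) and the 5 naive libraries (blue), numbered by library, with the mean and SD of each group as a bar. All sham points lie under all naive points for Ryr2 and Hrc, while the points of Trdn and Slc8a1 cover much the same range in both groups.

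All 3 calcium buffers of the store were lower in sham ventricles. Hrc, the histidine-rich calcium-binding protein of the lumen (ENSMUSG00000038239; chromosome 7, 45335290 to 45338974, plus strand), had 942.3, 987.1, 906.8, 1112 and 1003 CPM in sham against 1125, 1252, 1265, 1349 and 1371 CPM in naive libraries. The groups did not overlap, and sham 4 came closest to the naive range. Hrc varied least, with a coefficient of variation of 7.86% in sham and 7.65% in naive libraries. Its mean was 990.2 ± 77.8 CPM in sham and 1272 ± 97.28 CPM in naive hearts, and it fell by 0.36 ± 0.09 on the log2 scale (SE; edgeR adjusted p = 0.00438).

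Casq2, cardiac calsequestrin (ENSMUSG00000027861; chromosome 3, 102086415 to 102146514, plus strand), had 282.1, 332.8, 297.7, 371.8 and 350.7 CPM in sham against 326.0, 373.3, 386.7, 489.7 and 524.7 CPM in naive libraries. The groups overlapped by naive 1, which lay within the sham range, while naive 2 lay just above it. Casq2 averaged 327 ± 37 CPM in sham and 420.1 ± 83.6 CPM in naive hearts and fell by 0.36 ± 0.13 on the log2 scale (SE; edgeR adjusted p = 0.0378). Its call was lost when naive 4 or 5 or sham 1, 2, 3 or 5 was left out, with log2 fold changes of -0.37 to -0.27.

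Casq1, the calsequestrin that predominates in skeletal muscle (ENSMUSG00000007122; chromosome 1, 172209894 to 172219868, minus strand), was low in both groups, with 469 counts over the 5 sham and 548 over the 5 naive libraries. It had 3.724, 6.318, 3.355, 6.74 and 5.462 CPM in sham against 8.924, 6.768, 12.01, 8.623 and 6.377 CPM in naive libraries. Sham 1 and sham 3 were the lowest, naive 3 was the highest, and the groups overlapped between 6.377 and 6.74 CPM. Its fall of 0.71 ± 0.21 on the log2 scale (SE; edgeR adjusted p = 0.0179) was the largest of the 9 in size, but the call was lost without naive 3, where the log2 fold change was -0.56. Skeletal muscle markers summed to 24.77 to 29.55 CPM in sham and 26.33 to 36.5 CPM in naive libraries, with 0 of 8 tested markers higher and 2 lower. The fast troponin C gene Tnnc2 was at 3 counts or fewer, but 74.0% of its exon bases are shared with Ube2c on the other strand, so it is uncertain. The part of the skeletal muscle markers in the result for Casq1 was not tested. Casq1 also shares some of its exon bases with Gm17224 on the other strand, and these libraries do not mark strand.

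The starts of the 2 cardiac buffer genes follow, both on the plus strand (GRCm38.p6): Casq2 at chr3:102086165-102086464, shown because it holds a MEF2 match, and Hrc at chr7:45335019-45335318, shown because its groups did not overlap. The capitals mark that MEF2 match in Casq2 and a GATAA match in Hrc.
Casq2: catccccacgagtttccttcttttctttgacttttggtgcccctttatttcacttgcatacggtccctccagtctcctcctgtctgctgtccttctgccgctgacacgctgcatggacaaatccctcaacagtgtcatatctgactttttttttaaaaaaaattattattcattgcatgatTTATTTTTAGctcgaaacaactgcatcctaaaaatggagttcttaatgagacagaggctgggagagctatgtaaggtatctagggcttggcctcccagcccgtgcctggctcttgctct
Hrc: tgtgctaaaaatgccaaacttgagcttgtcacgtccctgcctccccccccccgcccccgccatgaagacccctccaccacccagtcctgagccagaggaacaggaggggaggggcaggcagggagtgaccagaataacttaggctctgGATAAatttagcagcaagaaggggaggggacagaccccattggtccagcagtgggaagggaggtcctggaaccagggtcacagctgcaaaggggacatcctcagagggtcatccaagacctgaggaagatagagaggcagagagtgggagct

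The pump and its main inhibitor were both lower in sham ventricles. Atp2a2, which encodes the SERCA2 pump (ENSMUSG00000029467; chromosome 5, 122453513 to 122502225, minus strand), had 14970, 11540, 11970, 7619 and 10280 CPM in sham against 18690, 17110, 16180, 13270 and 14190 CPM in naive libraries. Sham 1 reached into the naive range, above naive 4 and naive 5, and sham 4 lay far below the rest. Atp2a2 averaged 11270 ± 2672 CPM in sham and 15890 ± 2190 CPM in naive hearts and fell by 0.49 ± 0.15 on the log2 scale (SE; edgeR adjusted p = 0.0184). Without sham 5 the call was lost, at a log2 fold change of -0.44, and without sham 4 the log2 fold change was -0.35 and the call was kept.

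Pln, phospholamban (ENSMUSG00000038583; chromosome 10, 53337667 to 53345987, plus strand), had 462.0, 394.9, 406.6, 456.0 and 470.1 CPM in sham against 460.2, 543.6, 605.6, 808.7 and 891.1 CPM in naive libraries. The sham libraries lay close together, with a coefficient of variation of 7.89%, and the naive libraries were spread widely, at 27.4%. Naive 1 was the single naive library within the sham range. Pln averaged 437.9 ± 34.56 CPM in sham and 661.8 ± 181.6 CPM in naive hearts and fell by 0.60 ± 0.15 on the log2 scale (SE; edgeR adjusted p = 0.00681). In the annotation, 64.7% of the exon bases of Pln are shared with Cep85l and Gm47644 on the minus strand, so reads of these genes cannot be told apart from Pln reads here and the values of Pln are uncertain. Its start, on the plus strand of chr10:53337436-53337735 (GRCm38.p6), is shown as the most AT-rich of the promoters matched and for its pair of GATAA matches, in capitals, the first of them on the opposite strand.
Pln: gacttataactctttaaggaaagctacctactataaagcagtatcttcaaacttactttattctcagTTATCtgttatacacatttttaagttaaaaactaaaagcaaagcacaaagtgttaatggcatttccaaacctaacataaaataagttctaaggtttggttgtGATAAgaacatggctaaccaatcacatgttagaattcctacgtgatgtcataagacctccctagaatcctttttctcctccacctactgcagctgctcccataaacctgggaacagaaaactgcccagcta

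Sln, sarcolipin, the inhibitor of the pump that is best known from atria and skeletal muscle (ENSMUSG00000042045; chromosome 9, 53850164 to 53854560, plus strand), had 1 count in sham 4 and 0 counts in each of the other 9 libraries. In the libraries at 0, a floor of 3 counts allows up to 0.140 to 0.282 CPM in sham and up to 0.171 to 0.310 CPM in naive, counting error only. Ppp1ca, a phosphatase gene that most cells use, also had 1 count over all 10 libraries, so a near-empty row here need not mean that the transcript was missing. The 2 genes are not alike in annotation, however. Ppp1ca is listed with 1 transcript in the deposited table and 8 in GENCODE M21, and shares 16.5% of its exon bases with other genes. Sln is listed with 1 transcript in both and shares none of its exon bases. Among atrial markers, Bmp10 stood at 0.052 ± 0.052 CPM in sham and 0.119 ± 0.118 CPM in naive libraries (SD, n = 5 each). The 10 markers together stood at 169.6 to 248.9 CPM in sham and 143.9 to 198.5 CPM in naive libraries. Of 9 tested, 2 were higher, Dkk3 and Nppa, and 1 was lower, Stard10.

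Slc8a1, the sodium-calcium exchanger NCX1 (ENSMUSG00000054640; chromosome 17, 81373105 to 81738377, minus strand), had 89.56, 106.4, 111.5, 78.02 and 92.60 CPM in sham against 86.02, 95.92, 97.34, 112.4 and 118.8 CPM in naive libraries. The groups covered nearly the same range, with sham 4 the lowest and naive 5 the highest. Its mean was 95.61 ± 13.45 CPM in sham and 102.1 ± 13.28 CPM in naive hearts, and the log2 fold change of -0.10 ± 0.11 (SE) did not pass the test (edgeR adjusted p = 0.542). Its start, on the minus strand of chr17:81738338-81738637 (GRCm38.p6), is shown as that of a gene that did not pass; the capitals mark a pair of GATAA matches, the first on the opposite strand.
Slc8a1: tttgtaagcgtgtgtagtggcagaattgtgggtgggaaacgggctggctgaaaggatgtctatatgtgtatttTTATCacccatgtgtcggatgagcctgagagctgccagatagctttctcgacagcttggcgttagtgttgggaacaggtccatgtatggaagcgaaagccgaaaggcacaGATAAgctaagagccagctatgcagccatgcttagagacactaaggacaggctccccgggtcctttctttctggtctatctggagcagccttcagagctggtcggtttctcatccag

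RefSeq start windows, of 250 bases before and 50 after the start, matched 7 of the 10 genes, Jph2 with 2 overlapping windows. The GC content of these windows was 36.0% in Pln, 44.7% in Casq2, 50.7% in Slc8a1, 58.7% in Hrc, 60.3% in Casq1, 63.0% and 63.7% in Jph2 and 65.3% in Ryr2, against a median of 52.7% over 27025 promoters. Pln thus lay at the 5th percentile of all promoters, at 36.0%, and Ryr2 and Jph2 on the GC-rich side. Both strands were searched for the E-box core CANNTG, the GATA factor core GATAA, the TEAD factor core CATTCC, the GC box GGGCGG, the TATA box TATAAA, and the MEF2 and CArG consensus motifs. The 10-base MEF2 match of Casq2, at bases 182 to 191 of its window, was the 1 match among these genes for a motif that 3.26% of all promoters hold. GATAA, held by 25.8% of all promoters, matched at 2 places in Pln and in Slc8a1 and at 1 place in Hrc and in Casq1. GGGCGG, held by 35.9%, matched in Ryr2, at 2 overlapping places after the start, and in Jph2, Hrc and Casq1. TATAAA, held by 14.2%, matched in Pln alone. CANNTG, held by 72.1%, matched in all 7, while CATTCC and CArG, held by 14.6% and 1.57%, matched in none of these windows. GATAA thus occurred both in genes called lower and in Slc8a1, which was not. Ryr2 and Hrc, whose groups did not overlap, both held CANNTG and GGGCGG, as did Jph2 and Casq1, whose groups overlapped.

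Set per kilobase of the longest annotated transcript, the level of Atp2a2 stood far above the other 9, at 1987 ± 470.9 CPM per kb in sham and 2800 ± 386 CPM per kb in naive hearts (SD, n = 5 each). Hrc followed at 410.7 in sham and 527.7 in naive, Jph2 at 322.5 in sham and 403.9 in naive, Pln at 187.6 in sham and 283.6 in naive, Casq2 at 127.9 in sham and 164.4 in naive, and Ryr2 at 72.7 in sham and 114.5 in naive, all in CPM per kb. Trdn, Slc8a1 and Casq1 were far lower: Trdn at 6.12 in sham and 7.04 in naive, Slc8a1 at 5.18 in sham and 5.53 in naive, and Casq1 at 2.77 in sham and 4.62 in naive. The order of the 9 was the same in both groups. In naive libraries each neighbour from Hrc down to Ryr2 overlapped the next in range, as did Trdn, Slc8a1 and Casq1, whereas in sham libraries Hrc, Jph2, Pln, Casq2 and Ryr2 did not overlap. Dividing by the union of all exons gave Ryr2 42.5 CPM per kb in sham and 66.9 in naive, brought the sham ranges of Hrc and Jph2 into overlap, and changed the order of the last 3 genes, with Slc8a1 ahead at 5.08 in sham and 5.43 in naive.

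**Figure D2:**
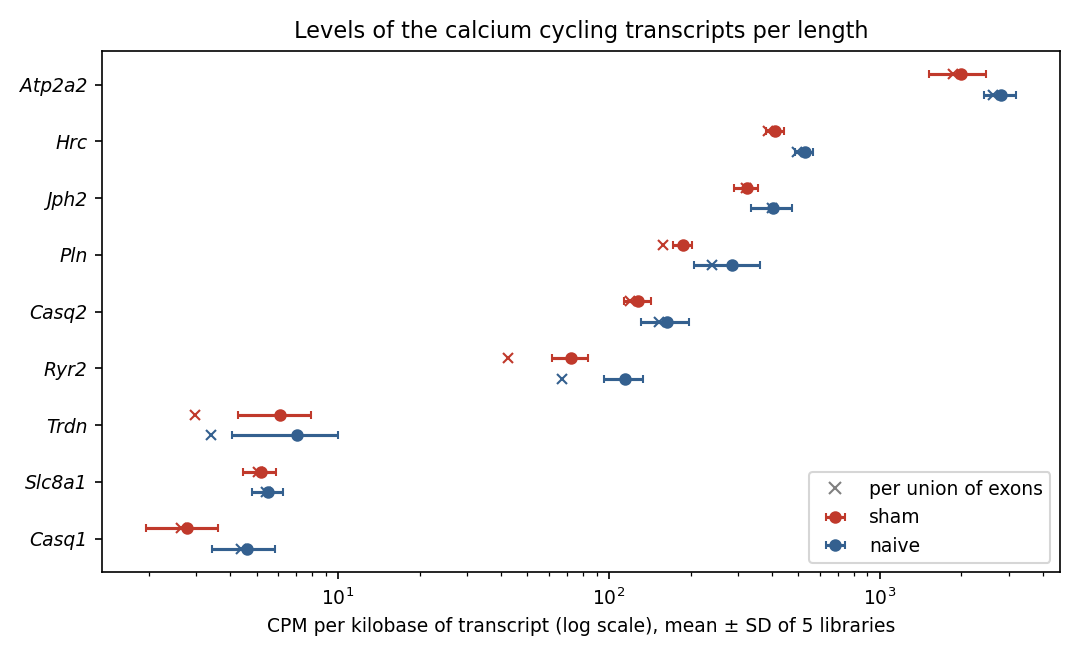
Mean level of 9 calcium cycling transcripts in CPM per kilobase of the longest transcript, on a log axis, in sham (red, upper) and naive (blue, lower) hearts, with the SD of 5 libraries; crosses give the mean per kilobase of all exons joined. Atp2a2 stands highest, 5 genes lie between 72.7 and 527.7, and Trdn, Slc8a1 and Casq1 lie under 10.

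Because scaling decides where 0 lies, the fold changes were also set against the shift of all genes. Scaling by library size alone moved the median of all 13622 genes to 0.22 on the log2 scale and scaling on the 15 heart muscle markers, which by construction sets those markers level between the groups, moved it to 0.33, from -0.05 with TMM factors. With library size alone 1 of the 9 was called lower, Ryr2, at a log2 fold change of -0.39, against 2.08% of all genes. With heart muscle scaling 0 of the 9 were called lower, against 0.653% of all genes, and Ryr2 was at -0.26. A change of scaling shifts all genes by nearly the same amount. The log2 fold change minus the median of all genes could therefore hardly move, and it tests nothing. For Ryr2 it was -0.61 with TMM, -0.61 with library size alone and -0.59 with heart muscle scaling. For Jph2 it was -0.28 with TMM, -0.27 with library size alone and -0.28 with heart muscle scaling, and for Slc8a1 it was -0.05 with TMM, -0.05 with library size alone and -0.03 with heart muscle scaling.

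**Figure D3:**
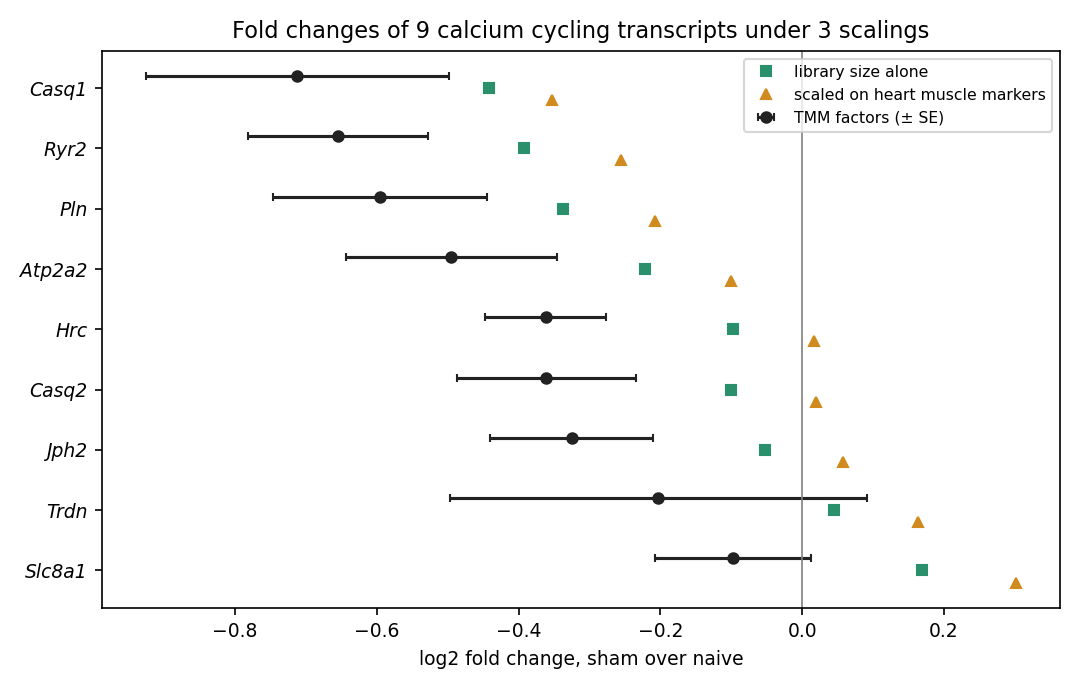
Log2 fold change, sham over naive, of 9 calcium cycling transcripts with TMM factors (black circles, ± SE), library size alone (green squares) and scaling on heart muscle markers (orange triangles). The order of the genes is nearly the same under each scaling, because a change of scaling shifts all genes by nearly the same amount. With heart muscle scaling Hrc, Casq2, Jph2, Trdn and Slc8a1 lie to the right of 0.

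Each gene was then set beside the heart muscle markers of its own library. The mean log2 CPM of the 15 markers was 11.94 ± 0.13 in sham and 12.32 ± 0.04 in naive hearts (SD, n = 5 each), a difference of -0.38 with an exact two-sided permutation p of 0.00794, the smallest that 5 against 5 allows. Over these markers, the difference sham minus naive in mean log2 level was -0.37 for Casq1, -0.27 for Ryr2, -0.18 for Pln, -0.14 for Atp2a2, 0.02 for Hrc, 0.03 for Casq2, 0.07 for Jph2, 0.24 for Trdn and 0.28 for Slc8a1. None of the 9 passed, with a smallest exact permutation p of 0.119 and a smallest adjusted p of 0.571, and 0 had an unadjusted p under 0.05; a p that misses the threshold does not show that the groups were alike. Set over the markers, Casq2, Hrc and Jph2 thus differed by 0.07 or less between the groups, Casq1 and Ryr2 had the lowest differences and Slc8a1 the highest. With 1 library left out, the difference for Ryr2 ran from -0.36 to -0.12, the last without sham 4, that for Pln from -0.29 to -0.06, the last without naive 5, and that for Trdn from 0.03 without naive 1 to 0.42 without naive 5.

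Ratios of 2 transcripts within a library do not depend on scaling. They were formed from counts without division by transcript length. The percentages therefore serve to compare the groups and do not give the proportion of one transcript to another. Per kilobase, Casq2 stood above Ryr2 in both groups. The ratio of Pln to Atp2a2 counts, the inhibitor over the pump, was 3.09% to 5.99% in sham and 2.46% to 6.28% in naive libraries, and the mean log2 ratio differed by -0.04 (sham minus naive; exact permutation p = 0.889). The ratio of Slc8a1 to Atp2a2, the exchanger over the pump, was 0.599% to 1.02% in sham and 0.461% to 0.848% in naive libraries, with 4 of 5 sham libraries above every naive library; the log2 difference was 0.42 (exact permutation p = 0.0635, adjusted p = 0.265). Casq2 over Ryr2 was 21.6% to 41.0% in sham and 19.7% to 26.6% in naive libraries, a log2 difference of 0.31 with the smallest exact permutation p of the family, 0.0556, and 3 of 5 sham libraries above every naive library; without sham 4 the difference was 0.16. The exchanger over the pump and calsequestrin over the channel were thus above the whole naive range in most sham libraries, without passing the test. For Casq2 over Ryr2, sham 2 and sham 5 were only just above it, at -1.876 and -1.894 in log2 against -1.910 in naive 4. Hrc over Ryr2 also had 3 of 5 sham libraries above every naive library.

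The other 7 ratios overlapped between the groups as well. Hrc over Ryr2 differed by 0.29 in log2 (exact permutation p = 0.0794), Jph2 over Ryr2 by 0.34 (p = 0.19, exact) and Trdn over Ryr2 by 0.52 (p = 0.183, exact), all higher in sham in the mean. Without sham 4 these were 0.15 for Hrc over Ryr2 and 0.26 for Trdn over Ryr2, and without naive 5 Jph2 over Ryr2 was 0.18. Ryr2 over Atp2a2 differed by -0.14, Hrc over Casq2 by -0.02, Casq1 over Casq2 by -0.41 and Trdn over Casq2 by 0.21. Over all 10 ratios, 0 had an adjusted p under 0.05 and 0 an unadjusted one by the exact permutation test. No ratio with Sln could be formed.

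**Figure D4:**
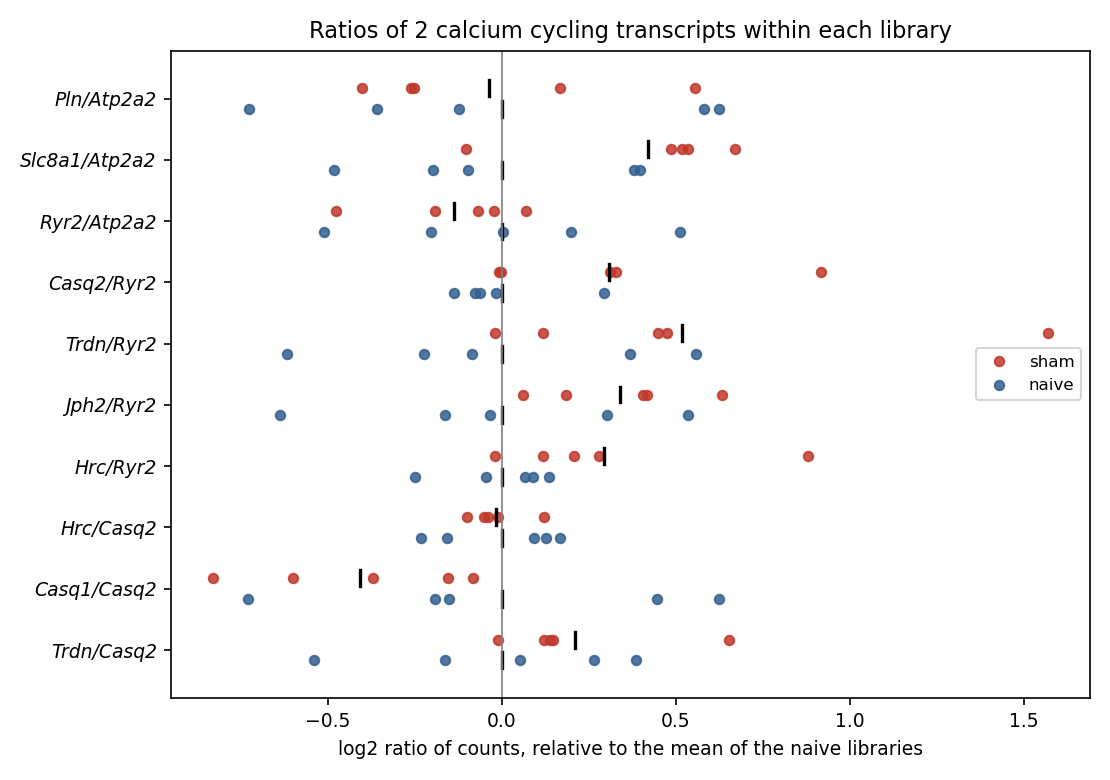
Log2 ratio of the counts of 2 calcium cycling transcripts in each of 5 sham (red, upper row of each pair) and 5 naive (blue, lower row) libraries, shifted so that the mean of the naive libraries is at 0; black bars are group means. For Slc8a1/Atp2a2, 4 of the 5 sham points lie to the right of all naive points, and 1 sham library, sham 4, is the rightmost point of the ratios over Ryr2, by the widest margin for Trdn/Ryr2.

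Within the groups, the 9 tested genes did not all vary together. After the mean of each group was taken off the log2 CPM, the 36 pairs of the 9 tested genes had a median Pearson r of 0.0955 over the 10 libraries, with 20 pairs positive; the points share libraries and scaling factors, and the values are a description only. One set that deviated together was Trdn, Casq2, Hrc and Pln: r was 0.962 for Trdn and Casq2, 0.958 for Trdn and Hrc, 0.899 for Casq2 and Hrc, 0.862 for Trdn and Pln and 0.730 for Hrc and Pln. Atp2a2 and Jph2 deviated together at r = 0.768 and opposite to that set, with r = -0.937 for Jph2 and Casq2 and r = -0.857 for Hrc and Atp2a2. Ryr2 deviated with Slc8a1, at r = 0.792.

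The same libraries stood at the ends of these patterns. Naive 1 was the lowest naive library for Ryr2, Trdn, Casq2, Hrc, Pln and Slc8a1 and the highest for Atp2a2 and Jph2. Naive 5 was the highest naive library for the first 6 and the lowest for Jph2. In sham, sham 4 deviated from its group mean by -0.53 for Atp2a2 and -0.41 for Ryr2 but by 0.63 for Trdn and 0.44 for Casq1, all in log2 CPM. With naive 1 and sham 4 left out together, 6 of the 9 were called lower, as were 2131 of all 13603 genes tested. In that fit the log2 fold change was -0.60 for Ryr2, -0.42 for Hrc, -0.69 for Pln and -0.29 for Atp2a2, with Jph2 no longer called at -0.20. Trdn moved most, to -0.53, and did not pass.

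**Figure D5:**
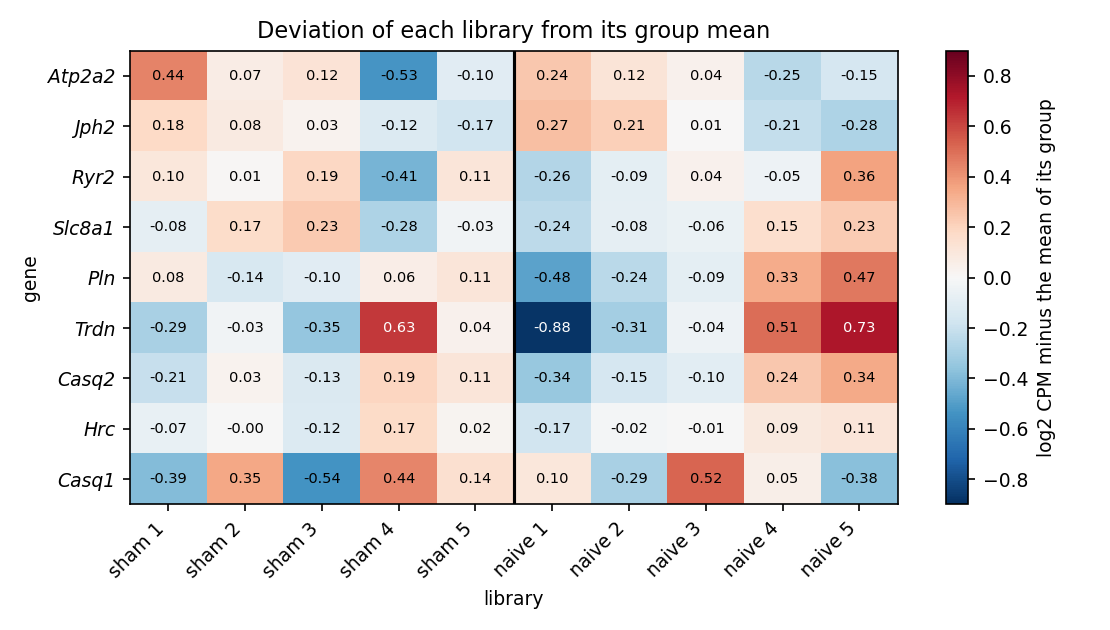
Deviation of each library from the mean of its own group, in log2 CPM, for 9 calcium cycling transcripts (rows) in 5 sham libraries (left of the line) and 5 naive libraries (right of it); red is above and blue below the group mean. In naive 1, Atp2a2 and Jph2 are red at 0.24 and 0.27 where Trdn is at -0.88, and naive 5 has Trdn at 0.73.

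By the same measure, the genes most like Ryr2 among those with a mean of at least 1 CPM were Tmem248 (r = 0.974), Baz2a (0.973), Naca (0.968), Fam120c (0.966) and Patl1 (0.964). For Atp2a2 they were Ulk1 (r = 0.993), Ccni (0.990), Ppp2r5e (0.987), Fhod3 (0.986) and Rnf103 (0.985), and for Casq1 they were Aamp (r = 0.922), Pqbp1 (0.918), Mdk (0.899), Anks3 (0.897) and Zkscan6 (0.896). Each r is over 10 libraries and was the highest of many, so it describes these libraries and carries no test.

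Around the 10 genes, 69 genes of calcium handling were listed, of which 64 were tested. Of these, 15 were lower and 10 were higher in sham and 39 did not pass, with a median log2 fold change of -0.03, where 15.5% of all genes tested were lower and 17.2% higher. The balance turned over with the scaling, to 2 lower and 25 higher with library size alone and 1 lower and 29 higher with heart muscle scaling. Over all 13622 genes it turned over as well, to 283 lower and 4473 higher with library size alone. With heart muscle scaling, 89 of all genes were lower and 5958 were higher. Among 16 partners of the release channel, 4 were lower and 2 were higher, although the 4 lower ones turned positive with heart muscle scaling. Tmem38a, the TRIC-A cation channel that balances charge during release, fell by 0.34 ± 0.07 on the log2 scale (SE; edgeR adjusted p = 0.00256), to 404.2 ± 25.15 CPM in sham against 510.7 ± 12.14 CPM in naive hearts. Sri, sorcin, a calcium-sensing regulator of the channel, rose by 0.39 ± 0.11 (edgeR adjusted p = 0.0134), and Calm2, 1 of the calmodulin genes, rose by 0.52 ± 0.15 (edgeR adjusted p = 0.0165). The other lower genes were the junctin gene Asph at a log2 fold change of -0.28, the kinase gene Speg at -0.38 and the inositol trisphosphate receptor Itpr1 at -0.27. Each of these 3 calls was lost in most fits with a library left out: Asph without naive 4 or 5 or sham 1, 2, 4 or 5, Speg without naive 1, 2 or 3 or sham 2, 3, 4 or 5, and Itpr1 without naive 2, 3, 4 or 5 or sham 2, 3, 4 or 5.

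Another list held pump isoforms, regulators and the kinases and phosphatases that act on phospholamban and the channel. Of its 15 tested genes 6 were lower, 0 were higher and 9 did not pass, where 15.5% of all genes tested were lower, although Prkaca and Camk2g turned positive with heart muscle scaling. In all 6 every sham library lay below every naive library, as in 9.18% of all genes tested. Of the 6, Camk2a (-0.29) and Camk2b (-0.47) were still called lower with library size alone and Camk2b (-0.36) with heart muscle scaling, while Camk2d was at -0.22 with library size alone and at -0.10 with heart muscle scaling, not called in either. The calcium/calmodulin kinase genes Camk2a, at 76.74 ± 4.03 CPM in sham and 112.3 ± 8.48 CPM in naive hearts (SD, n = 5 each), and Camk2b, at 18.43 ± 1.78 CPM in sham and 30.79 ± 3.88 CPM in naive hearts, fell by 0.55 ± 0.08 and 0.74 ± 0.11 on the log2 scale (SE; edgeR adjusted p = 5.62e-05 and 5.89e-05). Camk2d, the main cardiac form, fell by 0.49 ± 0.10 (edgeR adjusted p = 0.00164), to 60.97 to 95.54 CPM in sham against 109.3 to 120.8 CPM in naive libraries, and Camk2g by 0.31 ± 0.08. Of protein kinase A, the catalytic subunit gene Prkaca fell by 0.38 ± 0.08 (edgeR adjusted p = 0.00108) and the regulatory subunit gene Prkar2a by 0.40 ± 0.10.

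At the junction between store and surface membrane, 2 of 8 genes were lower and 1 was higher. Bin1, which shapes the transverse tubules, rose by 0.96 ± 0.11 on the log2 scale (SE; edgeR adjusted p = 4.33e-06), to 37.10 ± 2.64 CPM in sham against 19.15 ± 3.01 CPM in naive hearts. Jph1, the junctophilin best known from skeletal muscle, fell by 0.50 ± 0.12 (edgeR adjusted p = 0.00521). Cmya5, which encodes myospryn, fell by 0.59 ± 0.12 (edgeR adjusted p = 0.00111) and shares 21.7% of its exon bases with other genes, so it is uncertain. Bin1 is also expressed outside heart muscle, and the part of the fibroblast and macrophage markers, which were higher in the same libraries, was not tested.

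Other routes of calcium showed no shared direction. Of 4 tested genes of export across the surface membrane 0 passed. The log2 fold change was 0.21 for Atp2b1 (edgeR adjusted p = 0.19), 0.24 for Atp2b4 (0.215), 0.31 for Atp2b2 (0.633) and -0.26 for Slc8a2 (0.319). Without sham 4 Atp2b4 was called at 0.38. Of the plasma membrane pump genes, Atp2b1 (0.47) and Atp2b4 (0.50) were called higher with library size alone, as were 4473 of all 13622 genes. With heart muscle scaling Atp2b1 (0.59) and Atp2b4 (0.64) were called higher, as were 5958 of all genes. Both were also called higher with voom, and Atp2b1 with a surrogate variable and with GC correction, with and without the replicate block. Of 7 calcium-binding proteins of the secretory lumen 3 were higher and 0 were lower: Rcn3 rose by 2.06 ± 0.13 on the log2 scale (SE; edgeR adjusted p = 1.28e-08), Rcn1 by 0.98 ± 0.10 (2.59e-06) and Calr, calreticulin, by 0.25 ± 0.08 (0.019), the last not being called without naive 3 or naive 5. These reticulum proteins are found in many cell types, and the sham libraries were also higher in fibroblast markers, whose part was not tested.

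Of 8 genes of mitochondrial calcium uptake and release 3 were higher and 2 were lower, although 1 of the lower ones, Micu2, turned positive with library size alone and with heart muscle scaling. Mcub, the inhibitory subunit of the uniporter, was at 4.92 ± 0.97 CPM in sham and 1.87 ± 0.33 CPM in naive hearts (SD, n = 5 each) and rose by 1.42 ± 0.20 on the log2 scale (SE; edgeR adjusted p = 4.8e-05). Slc8b1, the mitochondrial sodium-calcium exchanger, rose by 0.40 ± 0.09 (edgeR adjusted p = 0.00388). Letm1, a mitochondrial inner membrane ion exchanger, fell by 0.42 ± 0.07 (edgeR adjusted p = 3.4e-04). Micu2 was at the edge, with a log2 fold change of -0.24 ± 0.09 (edgeR adjusted p = 0.0497) that was no longer called without naive 2, 3, 4 or 5 or sham 2, 3, 4 or 5. Of 6 genes of store-operated entry, Orai2 rose by 1.27 ± 0.18 (edgeR adjusted p = 5.54e-05), at 5.04 ± 0.66 CPM in sham and 2.07 ± 0.43 CPM in naive hearts, and Saraf, which restrains this entry, fell by 0.36 ± 0.08 (0.00204) but turned positive with heart muscle scaling. Stim2, at 0.14 in log2, did not pass (edgeR adjusted p = 0.182).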

How the data were processed

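Per the labels' protocols, polyadenylated RNA of frozen ventricles went into single-end libraries without strand information. The deposited table gives raw HTSeq read counts for Ensembl genes of GRCm38, not normalised by the authors. The submitters' processing notes name Bowtie2, TopHat2 2.1.1, HTSeq, DESeq and edgeR without their roles. The GC percent of each gene, also deposited, served only for a GC correction. No annotation release or counting mode is given in the sources used here.

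The 41264 rows held 574 repeats of an identifier, which were collapsed, and all 10 columns were used. Repeat counts of a single library were looked for: the chi-square per degree of freedom between libraries of 1 group was 9.20 or more, above the 1 of pure sampling noise. Nothing says that libraries of a group came from separate operations or days, so each p-value speaks of the spread between these libraries, which may be technical, and the floor of 3 counts covers counting error only.

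In R 4.3.3 with edgeR 4.0.16, filterByExpr (minimum count 10, total 15) kept 13622 genes, TMM factors scaled them, and a robust quasi-likelihood F test on the group alone gave p-values, adjusted by Benjamini-Hochberg over all of them. SEs were derived from the fold change and its F value. Ratios used counts plus 0.5 and exact two-sided permutation tests over all 252 splits, adjusted over the 10 ratios or the 9 genes. The smallest possible p was 0.00794, and 1 ratio or gene alone at that p could not reach an adjusted p under 0.05. Coordinates and lengths came from GENCODE M21, matched by identifier, and promoter sequences from RefSeq on GRCm38.p6.

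The 10 genes, the 7 lists of related genes and the marker lists were chosen with earlier results of these data known. Named were all 10 genes, the most abundant heart muscle marker, and the 5 genes of highest r with Ryr2, Atp2a2 and Casq1. Also named were up to 3 genes of smallest p in each list and all called genes of lists with 5 or fewer. Camk2d, Camk2g, Prkar2a, Asph, Speg, Itpr1, Myl7, Bmp10, Tnnc2, Ucp1 and Elovl3 were named after their values were seen. So were Nppa, Stard10, Atp2b2, Dkk3, Cacna1s, Col1a1, Col1a2, Col3a1, Dcn and Postn. Mcub was matched by identifier under an older symbol. Mrln, Ppp1ca, Slc8a3 and Atp2b3 were too low to test, and Strit1 was not analysed here; 1 called gene of the mitochondrial list is not reported here. Alternatives were DESeq2 1.42.0, RLE factors, library size alone, scaling on heart muscle markers, no filter, 1 CPM in 5 libraries, limma 3.58.1 voom with sample weights, the 20 most abundant genes left out, a replicate block, 1 surrogate variable from sva 3.50.0, GC correction with and without the block, ratios with no pseudocount, the median of the markers in place of their mean, and libraries left out.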

Additional observations from a re-analysis of the deposited data

Results flagged for a closer look

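Of 56 groups of 5 values examined, 3 held a library whose gap to its nearest neighbour was large against the range of its group; chance gives about 1 such group in 20. The log2 ratio of Slc8a1 to Atp2a2 in sham 1 was -7.384, with the other 4 sham libraries at -6.79 to -6.61. The log2 ratio of Trdn to Casq2 in sham 4 was -3.158, with the other sham libraries at -3.82 to -3.66. The log2 ratio of Casq2 to Ryr2 in naive 4 was -1.91, with the other naive libraries at -2.34 to -2.22.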

How the results depend on the processing

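The count of 7 lower calcium store genes was also 7 with DESeq2, RLE factors, no filter, a filter of 1 CPM, voom, the replicate block, a surrogate variable and both GC corrections, and 6 without the 20 most abundant genes, among them Atp2a2 itself. It was 1 with library size alone, 0 with heart muscle scaling and 4 to 6 with 1 library left out, the lowest without sham 5, where Jph2, Casq2 and Atp2a2 were not called. Without sham 5, 1485 of all 13715 genes tested were called lower, against 2113 of 13622 with all libraries. Related genes gave 2 lower and 25 higher with library size alone, 1 lower and 29 higher with heart muscle scaling. They gave 16 higher under GC correction with the replicate block. With 1 library left out they gave 11 to 14 lower and 9 to 12 higher, and with the replicate block alone 18 lower and 13 higher. All 13622 genes turned the same way, with 4473 called higher with library size alone and 5958 with heart muscle scaling. The labels do not say whether the numbers pair the samples. Same-numbered libraries deviated with r of 0.227, 0.035, 0.008, 0.293 and 0.292. Sham 1, sham 4 and sham 5 correlated best with the naive library of their own number, and sham 2 and sham 3 did not. Over all genes, the replicate block called 2801 lower and 2592 higher, against 2113 and 2342 without it. Whether the numbers mark a pairing or a shared batch was not settled. Signs turned under library size alone for Trdn (0.045), Slc8a1 (0.169), Slc8a2 (0.006) and Micu2 (0.026), and with voom for Slc8a1 (0.025). With heart muscle scaling they turned for Trdn (0.163), Jph2 (0.058), Casq2 (0.020), Hrc (0.017), Slc8a1 (0.302), Tmem38a (0.045), Prkaca (0.001), Camk2g (0.069), Saraf (0.018), Asph (0.108), Speg (0.011), Itpr1 (0.118), Slc8a2 (0.115) and Micu2 (0.142); both scalings moved the median of all genes upward. With naive 1 and sham 4 left out together the ratios turned for Hrc/Casq2 (0.032) and Trdn/Casq2 (-0.035), and the differences over heart muscle markers for Trdn (-0.080), Casq2 (-0.045), Hrc (-0.013) and Atp2a2 (0.112); the cause was not tested. With 1 library left out the range was -0.374 to 0.003 for Trdn (-0.532 with naive 1 and sham 4 both out), -0.220 to 0.118 for Pln/Atp2a2, -0.074 to 0.027 for Hrc/Casq2 and 0.075 to 0.306 for Trdn/Casq2. Over heart muscle markers it was -0.007 to 0.147 for Jph2, -0.047 to 0.116 for Casq2, -0.020 to 0.043 for Hrc and -0.250 to 0.046 for Atp2a2. No ratio and no level over the markers passed under any alternative run, and 1 result alone at the smallest possible p could not pass after adjustment. The 5 pairs of the block allow no p under 0.0625. Casq1 and Trdn, with the fewest counts, carry the largest errors.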
